A study of Sus scrofa with 4 samples.

Results

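The cytosolic ribosomal proteins are the proteins that, with the ribosomal RNAs, make up the ribosome of the cytoplasm. They were chosen here by gene name: every protein-coding gene whose symbol is RPL or RPS followed by a number, together with RPSA and RPLP0 to RPLP2. After the number the rule allows a single letter (A, X, Y or L) and further digits, so RPL36AL is left out. The rule found 81 genes among 16192 protein-coding genes, 22944 genes with an expression value and 31567 features in all. Of these, 31 were core genes of the small (40S) subunit, 45 were core genes of the large (60S) subunit and 5 were paralogs, that is, second copies that resemble a core gene (RPL22L1, RPL26L1, RPS27L, RPL7L1 and RPL3L). No measured value is part of the rule, but the members were chosen with earlier results of these data known. The members lay on 17 chromosomes, with the largest numbers on chromosomes 6 (12 genes), 1 (10 genes), 2 (8 genes) and 13 (8 genes), and all 81 were paired with the RefSeq annotation of the pig genome build Sscrofa11.1, whose coordinates are used below.

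The study followed subcutaneous preadipocytes, the fibroblast-like precursors of fat cells under the skin, of 3 male Chinese Erhualian piglets aged 5 days. Cells at confluence (D0) received dexamethasone, 3-isobutyl-1-methylxanthine and insulin for 2 days (D2), then insulin for 2 more days (D4), and growth medium up to day 8 (D8). All 4 groups were of the same breed, sex and depot, and none carried a genetic change. At each stage the RNA of the 3 animals was mixed in equal parts and ribosomal RNA was removed, which gave 1 library per stage and no replicates. Hence the spread between animals was unknown, and stage and library cannot be told apart.

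Each ribosome carries a single copy of nearly every core protein, and free ribosomal proteins are degraded, so cells keep the supply of the different subunit proteins in balance. The mRNAs of ribosomal proteins begin with a stretch of pyrimidines, the TOP motif (for terminal oligopyrimidine tract), through which the growth kinase complex mTORC1 controls their translation, and they rank among the most abundant mRNAs of growing cells. Insulin is a classical activator of mTORC1. Paralogs such as RPL22L1 and RPS27L can replace their core counterpart in the ribosome, and muscle ribosomes can carry RPL3L in place of RPL3.

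The question put to the data was how these mRNAs stood at each stage and how they moved between stages. Levels are FPKM (fragments per kilobase of gene model, scaled to the fragments counted in the library), so they can be compared between genes, within the limit of how well each gene model fits its mRNA. Ratios are given as log2 of FPKM plus a pseudocount of 0.01, and summaries include only genes that reached 1 FPKM in 3 or more libraries, which 80 of the 81 members and 9191 protein-coding genes passed. The verbs rose and fell are used where the higher of 2 libraries stood at least 25% above the lower (the 25% limit), and the 2-fold limit that the study used is given beside it. In bulk RNA, more cells of a type and more mRNA per cell cannot be told apart.

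The library totals were 75387428, 54987801, 74358922 and 54128151 fragments for D0, D2, D4 and D8, in that order. Core members drew at least 17859 fragments each at D0, and the 95% counting interval of a core member's log2 ratio extended 0.0151 to either side at the median and 0.0325 at most. These intervals cover counting error only. Markers of adipocytes and of their precursors were found, with mixed directions. The summed FPKM of 13 adipocyte markers (10 past the filter) was 126, 506, 1844 and 2174 at D0, D2, D4 and D8. From D4 to D8, 8 of these 10 were lower and 2 higher, with a median log2 ratio of -0.55. The sum of 11 preadipocyte and fibroblast markers (9 past the filter) was 3125, 5184, 5682 and 4785 and thus lowest at D0. From D0 to D4, 6 of these 9 were higher and 3 lower. Endothelial markers summed to 1.16 to 2.74 FPKM (1 of 6 past the filter) and leukocyte markers to 5.09 to 10.02 FPKM (3 of 9). The 5 skeletal muscle markers summed to 436, 37.8, 4.28 and 36.2 FPKM in the same order, with DES (desmin) the only marker past the filter, and their part in the results below was not tested.

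Ribosomal protein mRNAs filled the top of the expression range. By mean FPKM over the 4 libraries, 8 of the 10, 38 of the 50 and 66 of the 100 highest protein-coding genes were members. Their FPKM added up to 27.7%, 33.0%, 32.2% and 32.2% of all protein-coding FPKM at D0, D2, D4 and D8. In fragments, which weight long genes more, members took 11.2% of those assigned to protein-coding genes at D0 (95% Wilson interval 11.218 to 11.234%), 13.9% at D2 (13.861 to 13.883%), 13.4% at D4 (13.437 to 13.455%) and 14.1% at D8 (14.091 to 14.112%). The Wilson intervals cover counting error only, not the spread between animals. D0 was the lowest of the 4 libraries on both measures. As a share of the FPKM of all genes, which includes the abundant signal recognition particle RNA, the members held 11.2%, 10.4%, 12.3% and 11.09%, and D2 was the lowest. The median core gene stood at 1353, 1438, 1457 and 1615 FPKM at D0, D2, D4 and D8.

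The 5 members with the highest mean level were RPS15, RPL35, RPS23, RPS12 and RPLP1. RPS15, a protein of the 40S head, was at 3930, 4453, 4425 and 4472 FPKM at D0, D2, D4 and D8. RPL35, which lies at the exit of the tunnel through which the new protein leaves the ribosome, was at 4122, 4018, 4079 and 4264 FPKM. The 4 libraries of either gene lay close together. RPS23, a protein of the decoding centre, was at 3472, 3994, 4173 and 4374 FPKM, lowest at D0 and highest at D8. RPS12, on the 40S head, was at 3401, 4435, 4120 and 4051 FPKM and was highest at D2.

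Across the 76 core genes, the length of the gene model and the mean FPKM had a Spearman correlation of -0.52, where length is itself the divisor of FPKM. The core models had a median length of 777.5 bases, and 6 were longer than 2000 bases. Levels of genes with long models are uncertain, while their ratios between libraries are not affected by a fixed length.

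The order of the core genes by level was nearly kept over differentiation. The Spearman correlation of core FPKM between D0 and D8 was 0.988, and between D0 and D4 it was 0.919 (76 genes, description only, with gene length shared by all libraries). The plot of levels shows this order, with RPS29, RPS20, RPS26 and RPL36 as genes whose 4 symbols lie furthest apart.

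**Figure D1:**
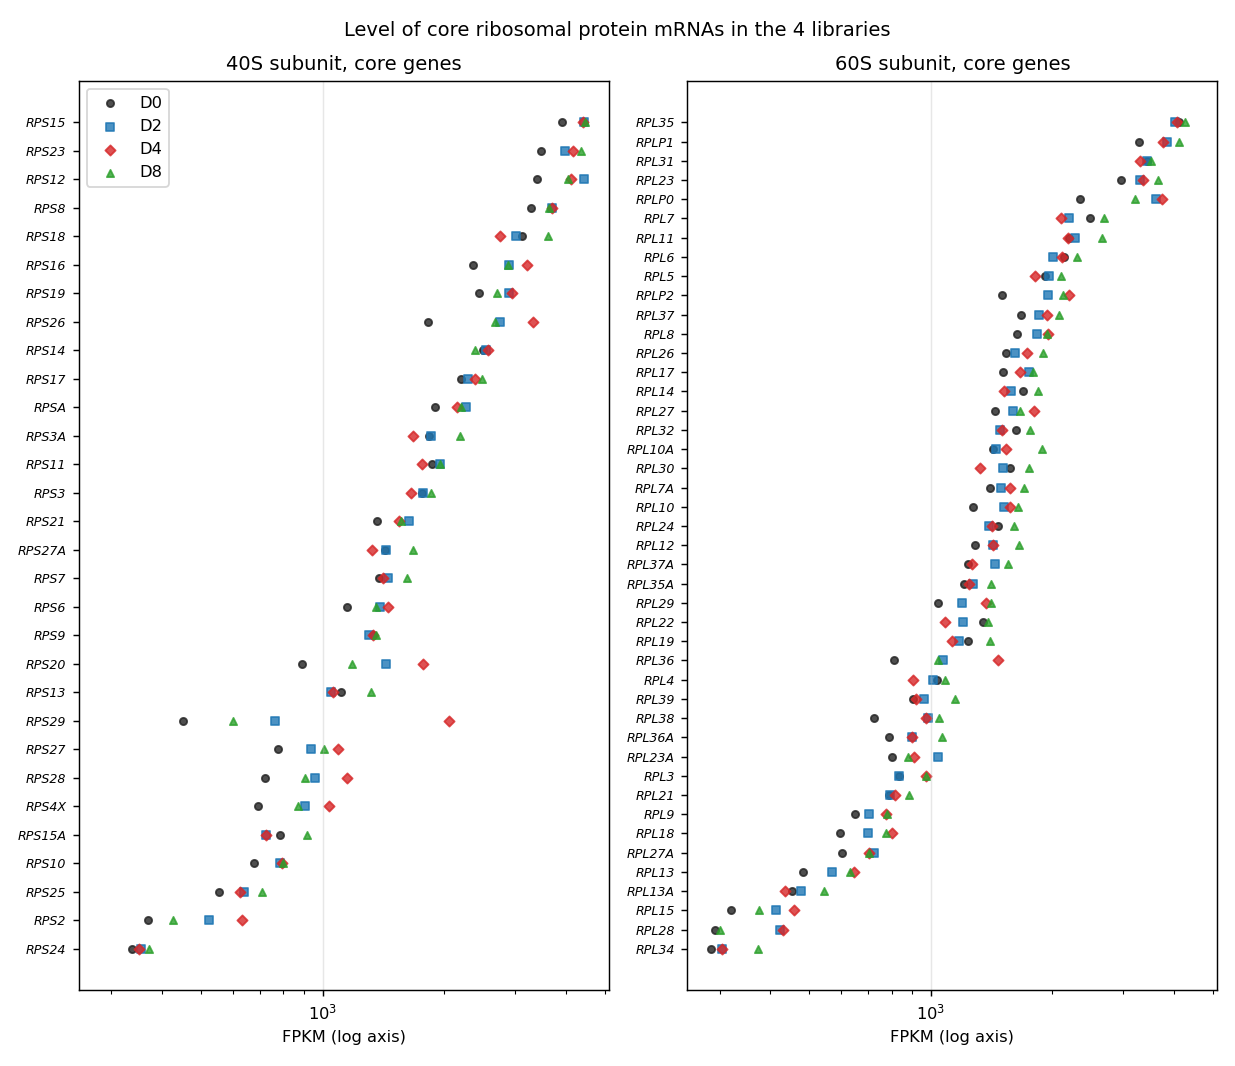
FPKM (log axis) of core 40S and core 60S genes in the 4 libraries, 1 symbol per library, sorted by mean level. Most genes keep their place, D0 symbols lie mostly to the left, and RPS29 at D4 stands apart at 2058 FPKM.

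The members moved little compared with other genes. The highest of the 4 libraries exceeded the lowest by 1.26-fold at the median of the 80 members that passed the filter, against 1.64-fold over the 9191 protein-coding genes and 1.35-fold over 75 mitochondrial ribosomal proteins, which build the separate ribosome inside mitochondria. The highest library stood less than 25% above the lowest for 36 of the 80 members (45%) and for 12.4% of all genes. A range of at least 2-fold was found for 2 members (2.5%) and for 30.8% of all genes. The 21 other protein-coding genes whose mean level reached the lower quartile of the members (862 FPKM) had a median range of 1.74-fold, and 9 of them (42.9%) reached 2-fold. The number of members within 25% depended on how libraries were scaled. It was 8 of 80 when libraries were scaled by the median ratio over genes, a smaller share than the 14.4% of all genes. It was 15 of 80 when they were scaled by the fragments of protein-coding genes, a larger share than the 13.0% of all genes. Under these scalings the median range of the members was 1.39-fold and 1.33-fold, against 1.59-fold and 1.63-fold for all genes.

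In FPKM as deposited, the narrowest members were RPS9, RPL35 and RPL31. RPS9, a 40S protein that binds the RNA of the subunit body early in assembly, was at 1330, 1306, 1335 and 1353 FPKM at D0, D2, D4 and D8, a range of 1.04-fold. RPL31, at the rim of the exit tunnel, was at 3424, 3428, 3298 and 3509 FPKM, a range of 1.06-fold. RPL35, whose values are given above, also had a range of 1.06-fold. RPS9 was 7th, RPL35 was 35th and RPL31 was 39th of the 9191 genes ordered from the narrowest range, and 32 of the 1000 narrowest genes were members.

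**Figure D2:**
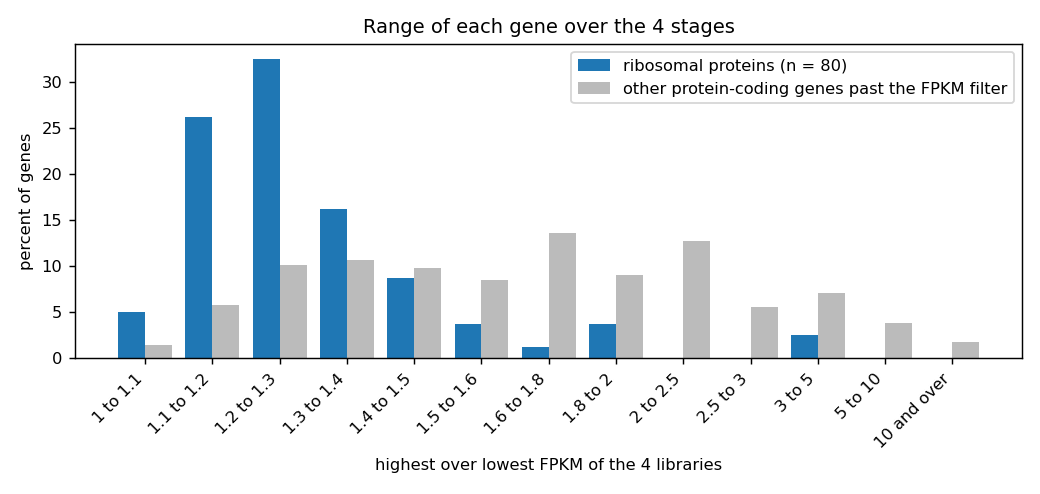
Percent of genes (vertical axis) by the ratio of the highest to the lowest FPKM of the 4 libraries (horizontal axis, bins of unequal width), for 80 ribosomal protein genes and for the other protein-coding genes past the filter. Of the members, 26 fall between 1.2-fold and 1.3-fold, and 2 lie at or above 2-fold.

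From D0 to D2, under the hormone cocktail, most members were a little higher. The median log2 ratio was 0.15 (-0.03 over all genes), and 62 of 80 members were higher at D2, where 48% of all genes were. None of the members reached 2-fold in either direction (6.67% of all genes up, 10.1% down). At the 25% limit 15 members rose (18.75%; all genes 27.1%) and 1 fell (all genes 31.8%). The core genes of the 40S subunit had a median of 0.21 and those of the 60S subunit a median of 0.12. With libraries scaled by the fragments of protein-coding genes, 76 members were higher and 4 lower (58.4% of all genes higher). That scaling moved the median of all genes by 0.15.

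From D2 to D4, when insulin was the only inducer kept in the medium, the members as a group hardly moved. The median log2 ratio was 0.02, against 0.09 for all genes, with 48 members higher and 32 lower (62.5% of all genes higher). At the 25% limit 3 members rose (all genes 25.9%), namely RPS29, RPL22L1 and RPL36, and RPS27L fell (all genes 9.07%). Only RPS29 reached 2-fold upwards (all genes 4.24%) and none did so downwards (all genes 0.838%). The sign of this small shift depended on the scaling. With median-ratio scaling 23 members were higher and 57 lower (50.1% of all genes higher). With scaling by the fragments of protein-coding genes 21 were higher and 59 lower (49.3% of all genes higher).

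From D4 to D8 the members moved apart from the bulk of genes. All genes had a median log2 ratio of -0.21 and the members one of 0.08, so the members stood 0.30 above. Of the 80 members 53 were higher at D8, while 35.1% of all genes were. At the 25% limit 9 members rose (11.25%; all genes 17.6%) and 7 fell (8.75%; all genes 42.3%). RPS29 was the only member to fall 2-fold (all genes 10.1%), and none rose 2-fold (all genes 4.43%). With median-ratio scaling, which moved the median of all genes by 0.21, 67 members were higher and 13 lower (49.8% of all genes higher).

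The comparisons of D4 and D8 with D0 share the D0 library, so their values are given side by side. At D4 the median member had a log2 ratio of 0.18 (all genes 0.06), with 57 of 80 higher (all genes 53.8%), 21 that rose (26.25%; all genes 34.6%) and 2 that fell (all genes 28.4%). RPS29 and RPL22L1 rose 2-fold at D4 (all genes 10.4%), and no member fell 2-fold (all genes 8.81%). At D8 the median member had a log2 ratio of 0.23 (all genes -0.18), 76 of 80 were higher (all genes 31.5%), 24 rose (30%; all genes 12.4%) and RPS27L alone fell (all genes 34.6%). RPL22L1 was the only member that rose 2-fold by D8 (all genes 3.6%), and none fell 2-fold (all genes 3.68%).

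At D8 the gain was small and shared. All 45 core 60S genes and 30 of the 31 core 40S genes were above D0, with medians of 0.25 and 0.23. The standard deviation of the log2 ratio over the 76 core genes was 0.13, against 0.68 over all genes. The exception was RPS14, a 40S platform protein, at 2495, 2542, 2572 and 2386 FPKM, with a log2 ratio of -0.06 at D8 against D0. That held for FPKM as deposited only, since RPS14 was above D0 at D8 in both other scalings. With median-ratio scaling or scaling by protein-coding fragments, 78 of the 80 members were above D0 at D8. Of all genes, 47.1% and 41.8% were above D0 in these scalings, and their median moved by 0.16 and 0.11.

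**Figure D3:**
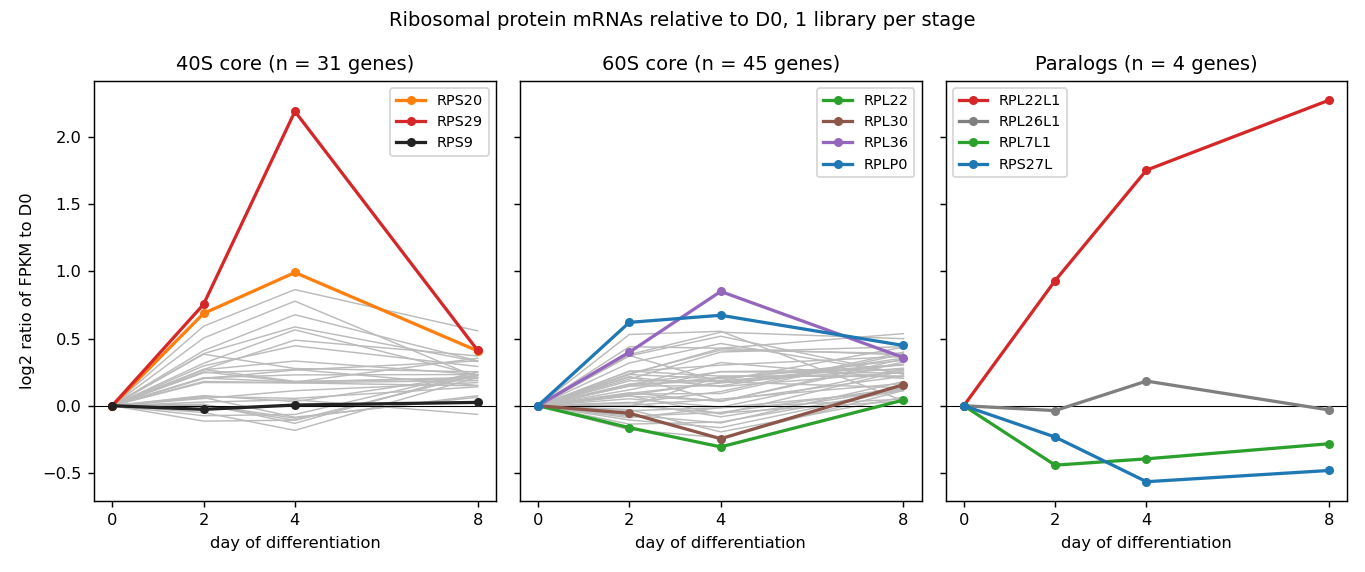
Log2 ratio of FPKM to D0 (vertical axis) by day of differentiation (horizontal axis) for the 31 core 40S genes, the 45 core 60S genes and the 4 paralogs past the filter, 1 line per gene and 1 library per day. Grey lines are genes without a label, RPS29 peaks at 2.19 at D4 and returns to 0.41 at D8, RPL22L1 climbs to 2.27, and core lines lie close together at D8.

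Within this narrow family, core genes took different courses through D4. Of the 76 core genes, 22 were higher at D4 than at D2 and lower again at D8 (12 of the 40S and 10 of the 60S subunit), 27 were lower at D4 than at D2 and higher again at D8 (11 and 16), and 15 were higher at each stage than at the one before (3 and 12), by differences of any size. In all, 52 core genes were above D0 at D2, D4 and D8, and 13 were below D0 at D2 and D4 and above it at D8. Over all 9191 genes, these 5 courses were taken by 46.8%, 19.4%, 1.84%, 22.8% and 4.83%, against 28.9%, 35.5%, 19.7%, 68.4% and 17.1% of the core genes. Successive steps share a library, so a single high or low library gives such a course. With median-ratio scaling the 5 numbers of core genes were 10, 53, 11, 47 and 12. With scaling by the fragments of protein-coding genes they were 13, 52, 6, 60 and 2. The shares of all genes with these courses were not worked out in these scalings. The numbers thus depended on the scaling, and only the larger courses, given next, are described by gene.

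The widest core member was RPS29, a small zinc-binding protein of the 40S head and a gene mutated in Diamond-Blackfan anaemia. RPS29 was at 451, 761, 2058 and 600 FPKM at D0, D2, D4 and D8, from 57640, 70924, 259359 and 55061 fragments. The D4 library stood far above the other 3. The log2 ratio was 2.19 for D4 vs D0, -1.78 for D8 vs D4 and 0.41 for D8 vs D0. RPS29 lies on the minus strand of chr1:179454923-179456847, and its gene model covered 1695 of these 1925 bases. A signal recognition particle RNA gene, LOC102723301, starts 152 bases away on the plus strand (chr1:179457000-179457281) and took 12.4%, 17.1%, 12.5% and 16.5% of all fragments at D0, D2, D4 and D8. That RNA was thus at nearly the same share at D0 and D4, where RPS29 differed most, and its part in the RPS29 values was not tested.

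After RPS29, the core genes with the widest range were RPS20, RPS26, RPL36 and RPS2, of which only RPS20 is named by the rule for single genes and the others were picked for their range after the values were seen. RPS20, a protein of the 40S head (chr4:75762209-75763449, plus strand), was at 892, 1435, 1773 and 1183 FPKM at D0, D2, D4 and D8. It rose to a log2 ratio of 0.69 at D2 and 0.99 at D4 and stood at 0.41 at D8. RPS26, which contacts the mRNA at the exit channel, was at 1821, 2745, 3314 and 2679 FPKM. RPL36, a 60S protein, was at 812, 1070, 1464 and 1041 FPKM. RPS2, at the mRNA entry channel, was at 369, 523, 633 and 427 FPKM. In each of these 4 genes D0 was the lowest and D4 the highest library.

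From D4 to D8, 7 of the 76 core genes fell (9.21%, against 42.3% of all genes). Among them were RPS29, RPS20, RPS2, RPL28, RPL36 and RPS28. Another 8 core genes rose from D4 to D8, namely RPL30, RPS18, RPS3A, RPL7, RPL22, RPS15A, RPS27A and RPL13A. The genes of both groups were named for this step after the values were seen, except those given elsewhere by rule. Both numbers depended on the scaling: with median-ratio scaling 34 of all 80 members rose and 3 fell. The shares of all genes were not worked out there. RPL30, a 60S protein, was at 1573, 1513, 1326 and 1753 FPKM at D0, D2, D4 and D8, lowest at D4. RPS18, at the 40S head, was at 3117, 3009, 2745 and 3609 FPKM, also lowest at D4.

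The ribosomal stalk is a flexible arm of the 60S subunit that recruits the translation factors, built from RPLP0 at its base and pairs of the acidic proteins RPLP1 and RPLP2. RPLP0 (chr14:40219196-40223943, minus strand) was at 2346, 3606, 3741 and 3201 FPKM at D0, D2, D4 and D8. RPLP1 (chr1:167296084-167298264, plus strand) was at 3271, 3843, 3759 and 4131 FPKM. RPLP2 (chr2:507891-509818, plus strand) was at 1503, 1957, 2196 and 2124 FPKM. In all 3 genes D0 was the lowest library, but their sizes differed: at D4 vs D0 the log2 ratio was 0.67 for RPLP0, 0.20 for RPLP1 and 0.55 for RPLP2, and at D8 vs D0 it was 0.45, 0.34 and 0.50.

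RPLP0 was also one of the 3 genes to which the study scaled its quantitative PCR, with PPIA (cyclophilin A) and HPRT1 (a purine salvage enzyme). The primers of the 3 genes, as the study lists them, are printed 5′ to 3′ because they define which mRNAs served as reference; no part is capitalised.
RPLP0 forward: ggcaagaacaccatgatgcg
RPLP0 reverse: gtgacttcgcatggggctat
PPIA forward: ctgagcactggggagaaagg
PPIA reverse: gtcaccaccctggcacataa
HPRT1 forward: gggaggccatcacatcgtag
HPRT1 reverse: cgcccgttgactggtcatta

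In the sequencing data the 3 reference genes moved differently. RPLP0 was 1.54-fold, 1.59-fold and 1.36-fold its D0 level at D2, D4 and D8, with a range of 1.59-fold that placed it 4248th of 9191 genes from the narrowest. PPIA was at 0.719, 0.740 and 0.850 of its D0 level (944, 679, 699 and 802 FPKM), the opposite direction. HPRT1 was at 0.736, 1.202 and 1.001 of its D0 level, at only 5.32 to 8.68 FPKM. The geometric mean of the 3 was at 0.933, 1.12 and 1.05 of its D0 level, closer to 1 than RPLP0 alone at every stage.

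The largest change in the family was in a paralog. RPL22L1 (chr13:109495771-109499495, minus strand) was at 45.3, 86.4, 153 and 219 FPKM at D0, D2, D4 and D8, from 2108, 2932, 7008 and 7320 fragments. Each library was above the one before it, and the log2 ratio reached 0.93 at D2, 1.75 at D4 and 2.27 at D8. Its core counterpart RPL22, an RNA-binding 60S protein (chr6:67092892-67102086, minus strand), was at 1344, 1200, 1087 and 1383 FPKM. RPL22 was lowest at D4 (log2 ratio to D0 of -0.31, short of the 25% limit) and back near D0 at D8 (0.04). RPL22L1 thus made up 3.26% of the FPKM of the pair at D0 (95% counting interval 3.13 to 3.40%), 6.72% at D2 (6.48 to 6.96%), 12.3% at D4 (12.1 to 12.6%) and 13.7% at D8 (13.4 to 14.0%).

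RPS27L, a paralog of the 40S protein RPS27 and a known target of p53, went the other way. RPS27L (chr1:108881330-108886334, plus strand) was at 480, 409, 325 and 344 FPKM at D0, D2, D4 and D8, highest at D0. RPS27 (chr4:95697869-95699481, minus strand) was at 778, 938, 1091 and 1006 FPKM, lowest at D0. The log2 ratios for D4 vs D0 were -0.57 for RPS27L, which fell, and 0.49 for RPS27, which rose. The share of RPS27L in the pair was 38.2% at D0 (37.8 to 38.6%), 30.4% at D2 (29.97 to 30.8%), 22.9% at D4 (22.6 to 23.2%) and 25.5% at D8 (25.1 to 25.9%).

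The other paralogs were minor at every stage. RPL26L1 was at 35.8, 34.9, 40.6 and 35.0 FPKM at D0, D2, D4 and D8, against 1533, 1620, 1731 and 1893 FPKM of RPL26, which gave it 2.28%, 2.11%, 2.29% and 1.81% of the pair. RPL7L1, which is known mainly as a factor of ribosome assembly, was at 81.7, 60.1, 62.1 and 67.2 FPKM, and its log2 ratio to D0 was -0.44 at D2, -0.40 at D4 and -0.28 at D8. Against RPL7, at 2483, 2194, 2105 and 2685 FPKM, it made up 3.19%, 2.67%, 2.87% and 2.44%. RPL3L, the muscle paralog, did not pass the filter at 0.243, 0.263, 0.0598 and 0.175 FPKM (33, 26, 8 and 17 fragments), while RPL3 was at 836, 832, 973 and 974 FPKM. How fragments that match both a gene and its near copies were counted is not given in the sources used here, and ribosomal proteins have many processed pseudogenes, so levels of all members carry this uncertainty.

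**Figure D4:**
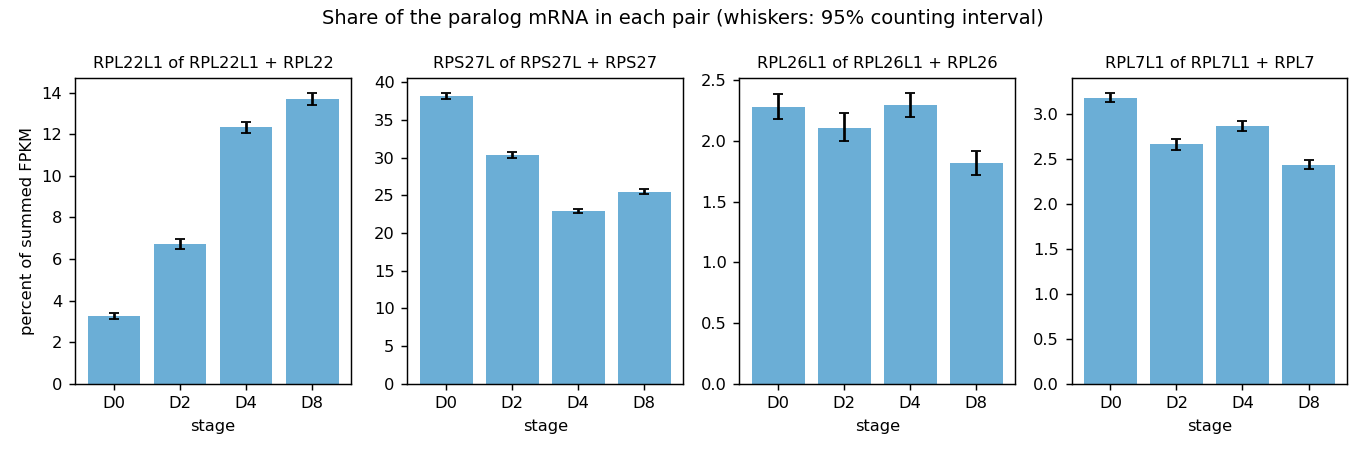
Share of the paralog in the summed FPKM of paralog and core gene (vertical axis, percent, a scale of its own in each panel) at each stage, with whiskers for the 95% counting interval. RPL22L1 climbs from 3.26% to 13.7%, RPS27L drops from 38.2% at D0 to 22.9% at D4, and RPL26L1 and RPL7L1 stay under 4%.

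Circular RNAs, made when an exon end is joined back to an earlier exon start, gave a second readout of the same loci. Of the 8623 circular RNAs listed, 10 lay inside a member, 8 of them on its strand, with 51, 63, 126 and 69 junction reads in all at D0, D2, D4 and D8. Of the members that hold them, RPSA, RPS10 and RPL17 are named for their junction reads, after these were seen. RPSA, the laminin-receptor protein of the 40S subunit, held the best covered of them (chr13:24074311-24075912, plus strand), with 0, 36, 87 and 52 junction reads, or 0, 262, 516 and 437 SRPBM (junction reads scaled by all mapped reads). The RPSA gene itself was at 1901, 2265, 2148 and 2202 FPKM. The circular RNA was listed at 0 at D0 alone, while the largest log2 ratio of RPSA FPKM to D0 was 0.2524, at D2. A circular RNA inside RPS10 had 0, 17, 20 and 12 junction reads, and RPS10 was at 678, 783, 795 and 797 FPKM.

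The circular RNA inside RPL22L1 (chr13:109497195-109497588, minus strand) had 14, 6, 0 and 0 junction reads, highest in the library where RPL22L1 FPKM was lowest. In RPL17 the circular RNA had 22, 0, 8 and 0 junction reads. The other 6 circular RNAs inside members had at most 7 junction reads in any library. The authors kept circular RNAs with at least 2 junction reads, so a value of 0 does not show absence, and with 1 library per stage these differences have no replicate check.

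In 13 members the gene interval overlapped another gene of the files, in each case on the opposite strand. Most of these partners were low, for example KLB at RPL9 at 1.54 to 19.8 FPKM, while NDUFA7 at the end of RPS28 was at 127 to 195 FPKM and NDUFB10 at RPS2 and RPL3L was at 91.5 to 110 FPKM. The libraries kept strand, but whether the counting used it is not given in the sources used here. Leaving these 13 members out changed none of the family's medians and calls beyond the limits set for it.

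Other genes of the translation machinery were described by lists, with all genes as background. The other TOP mRNAs are further mRNAs with the same leader (17 genes). Of these, 5 are also among the elongation factors, 5 among the initiation factors and 1 in a ribosome assembly list, and 2 are core ribosomal proteins. The median log2 ratio of the 17 genes to D0 was 0.16 at D2, 0.25 at D4 and 0.10 at D8, next to 0.15, 0.18 and 0.23 for the members. At D4, 7 of the 17 rose from D0 (41.2%; all genes 34.6%) and none fell (all genes 28.4%), from PABPC1 (poly(A)-binding protein, 0.84) to NAP1L1 (a histone chaperone, -0.21). For the initiation factors (36 genes) the 3 medians were 0.01, 0.11 and -0.12, and for the elongation and termination factors (14 genes) they were -0.04, -0.14 and -0.28. The initiation factors at D8 were at 0.04 with median-ratio scaling, and the elongation and termination factors at D2 were at 0.12 with scaling by protein-coding fragments, so these directions depended on the scaling.

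The factors that assemble ribosomes were mostly lower at D8 than at D4, unlike most ribosomal proteins; no test of this difference was possible. The small-subunit processome and its snoRNA-bound proteins, which process the precursor of 18S ribosomal RNA, had a median log2 ratio of 0.38 for D4 vs D0. Of these 58 genes, 31 rose (53.4%; all genes 34.6%) and 4 fell (all genes 28.4%), from NAT10 (1.43) to PNO1 (-0.84). From D4 to D8 the median was -0.47, with 36 that fell (62.1%; all genes 42.3%) and 1 that rose (all genes 17.6%), from EMG1 (0.47) to NOB1 (-1.81). Over the same step 7 of the 80 ribosomal proteins fell and 9 rose. Of the 54 large-subunit assembly factors, 29 fell from D4 to D8 (53.7%; all genes 42.3%) and 4 rose (all genes 17.6%). Their medians were 0.18 for D4 vs D0 and -0.33 for D8 vs D4, with MDN1 the highest at the first (1.28) and the lowest at the second (-1.48). EIF6, which keeps the 60S subunit from joining too early, was the opposite extreme in both (-1.18 and 1.001). The RNA polymerase I machinery, which transcribes the ribosomal RNA genes, had medians of 0.23 and -0.24 over its 20 genes (all genes 0.06 and -0.21), and 8 of the 20 fell from D4 to D8 (40%; all genes 42.3%), close to the share of all genes. It had extremes of TAF1C (1.34) and ZNRD1 (-0.35) for D4 vs D0 and of ZNRD1 (0.15) and POLR1A (-1.51) for D8 vs D4. For D8 vs D4 the medians of these 3 lists stayed below 0 under both other scalings, at -0.26, -0.12 and -0.03 with median-ratio scaling, while the members' median stayed above 0 at 0.30.

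The cytosolic aminoacyl-tRNA synthetases, which load amino acids onto tRNAs, were mostly below D0 at D4. Their median log2 ratio was -0.74 for D4 vs D0, against 0.18 for the members, with 15 of 22 genes that fell (all genes 28.4%) and 2 that rose (all genes 34.6%), from KARS (0.72) to GARS (-1.62). For D8 vs D4 it was 0.43, against 0.08 for the members, from WARS (1.18) to VARS (-0.94). The mitochondrial ribosomal proteins had medians of -0.10 for D4 vs D0, from MRPS6 (1.24) to MRPL33 (-0.95), and -0.06 for D8 vs D4, from MRPL57 (0.73) to MRPL43 (-1.13), where the second median was 0.15 with median-ratio scaling. The mTORC1 pathway and its growth-control genes (24 of 31 past the filter) had a median of 0.38 for D4 vs D0, from SESN1 (2.70), a stress-induced inhibitor of mTORC1, to EIF4EBP1 (-1.11), a repressor of initiation that mTORC1 inactivates. For D8 vs D4 their median was -0.55, from EIF4EBP1 (1.12) to SESN3 (-2.11).

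**Figure D5:**
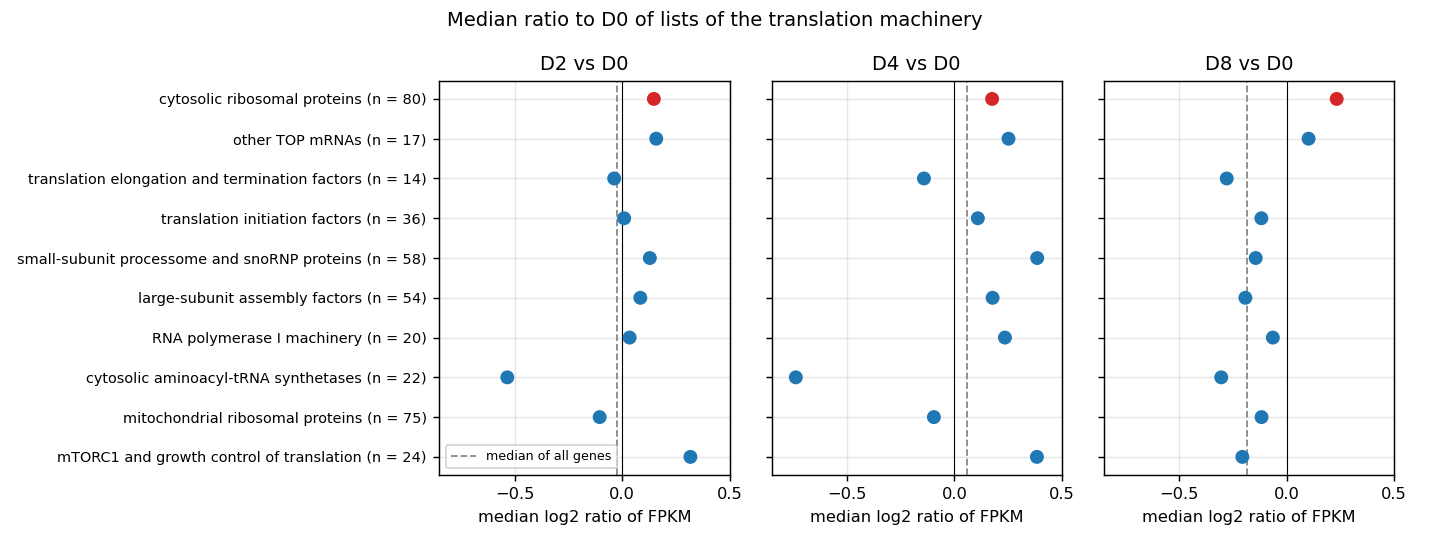
Median log2 ratio of FPKM to D0 (horizontal axis) at D2, D4 and D8 for the cytosolic ribosomal proteins (red) and 9 lists of other genes of the translation machinery (blue), with the median of all 9191 genes as a dashed line. At D8 the ribosomal proteins lie at 0.23, the other TOP mRNAs at 0.10 and the other 8 lists below 0, of which the processome (0.01), the initiation factors (0.04), the RNA polymerase I machinery (0.09) and the mitochondrial ribosomal proteins (0.04) lie above 0 with median-ratio scaling.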

How the data were processed

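Total RNA of 3 piglets per stage was pooled by the authors, depleted of ribosomal RNA and sequenced as 1 directional library per stage. The authors aligned reads to Sscrofa11.1 with HISAT2 2.0.5 (version as in the submitters' processing notes) and deposited FPKM for 22944 genes. For circular RNAs (BWA-MEM and CIRI, at least 2 junction reads) the same deposited column holds SRPBM, a coverage signal of junction reads scaled by all mapped reads. The counting tool is not given in the sources used here.

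Library totals were recovered from the FPKM of non-coding RNA genes, such as tRNAs, that held 1 fragment, with the gene span taken as length. With these totals, fragment numbers were recovered from the smallest whole gene length that gave whole fragments within 0.01 in all 4 libraries. A length was found for 22941 of 22944 genes and all 81 members, and 98.9 to 99.1% of each total was recovered. For a small part of the genes the length and fragment numbers found in this way may be a whole fraction of the true ones, which would make their counting intervals too wide and leaves FPKM as deposited. The steps were tested on simulated data.

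The study's 2-fold limit and a limit of 25% were applied to log2(FPKM + 0.01), between neighbouring stages and for D4 and D8 against D0. With 1 library per stage no test was run. Members and lists were chosen with earlier results of these data known. Single genes were named by rule: those past 2-fold, those extreme in mean ratio, level or range, the stalk genes, the paralogs with their core genes, the gene below the filter and the extremes of each list of other pathway genes. All other genes named were chosen after their values were seen. Python 3.11.15, pandas 2.3.3, numpy 2.4.6 and matplotlib 3.10.9 were used. Values of some single genes are not reported here.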

Additional observations from a re-analysis of the deposited data

How the results depend on the processing

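Of 181 alternative values, 145 stayed within the limits set for them, 34 moved and 2 reversed. The values are log2 medians of the members, numbers of members past a fold, the median range over stages and the share of FPKM held by the members.

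The 2 reversed values were the median for D4 vs D2, which was -0.0700 with median-ratio scaling and -0.0759 with scaling by the fragments of protein-coding genes (0.02 as deposited). With median-ratio scaling the medians were 0.18 for D2 vs D0, 0.30 for D8 vs D4, 0.12 for D4 vs D0 and 0.39 for D8 vs D0, the median range was 1.39-fold, 34 members rose and 3 fell at the 25% limit for D8 vs D4, and 56 rose for D8 vs D0. With scaling by protein-coding fragments the medians were 0.30 for D2 vs D0, 0.14 for D8 vs D4, 0.23 for D4 vs D0 and 0.34 for D8 vs D0. In that scaling 1 member rose 2-fold, 37 rose and 0 fell at the 25% limit for D2 vs D0, 17 rose at it for D8 vs D4 and 48 for D8 vs D0. With median-ratio scaling the median of all genes was -0.003 for D8 vs D4 and -0.027 for D8 vs D0. With scaling by protein-coding fragments it was 0.13 for D2 vs D0, -0.16 for D8 vs D4 and -0.08 for D8 vs D0. The shares of all genes past the 2-fold and 25% limits were not worked out in these scalings. The numbers of members past them thus have no background here. Both scalings shift all genes of a library together, and beyond that construction the cause was not tested.

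Without the paralogs the medians were 0.154 for D2 vs D0 and 0.0767 for D8 vs D4, 0 members fell at the 25% limit for D2 vs D0, D4 vs D2, D4 vs D0 and D8 vs D0, and the members that rose 2-fold numbered 1 for D4 vs D0 and 0 for D8 vs D0, since RPL22L1 was left out. Without the filter RPL3L entered, so that 1 member fell 2-fold and 2 fell at the 25% limit for D4 vs D2, 1 rose 2-fold for D8 vs D4, 1 fell 2-fold for D4 vs D0 and 2 fell at the 25% limit for D8 vs D0. As a share of the FPKM of all genes, the members held 11.2%, 10.4%, 12.3% and 11.09% at D0, D2, D4 and D8. Pseudocounts of 0.1 and 1 changed none of these values beyond their limits.

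No paired analysis was possible because each stage had 1 library of pooled RNA. The depth gave narrow counting intervals for all members but RPL3L, and the spread between animals was not measured.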

Other observations

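Some genes related to the ribosome that the naming rule leaves out were measured in the same libraries. FAU, whose product is cleaved to the 40S protein eS30, was at 570, 532, 522 and 591 FPKM at D0, D2, D4 and D8. RACK1, a scaffold protein bound to the 40S head, was at 1926, 2078, 2029 and 2161 FPKM, a narrow range. RPL36AL, a paralog of RPL36A, was at 386, 401, 339 and 544 FPKM. It was highest at D8, with a log2 ratio of 0.68 for D8 vs D4, and its share of the FPKM of the pair was 32.8%, 30.9%, 27.4% and 33.8%. RPL41, a core 60S gene, was not listed among the protein-coding genes under that name and so was not analysed here.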
